A study of Mus musculus with 12 samples.

Results

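Regulatory T cells (Tregs) isolated from pancreatic islets were compared between Lag3-deficient and wild-type (Wt) cells. The comparison was made over the 6 islet libraries, 3 of each genotype, among the 12 libraries of the study. They were taken by the genotype and tissue in the column names of the deposited count table, and no measured value entered that assignment. The other 6 libraries came from Tregs of non-draining lymph nodes (NDL), 3 of each genotype. All 12 libraries were sequenced from cytoplasmic RNA, in a study of LAG-3 as a limit on Treg proliferation and function in a mouse model of autoimmune diabetes. The label of the Lag3-deficient islet group gives the genotype Lag3 and the tissue islet. The label of the control islet group gives the genotype Wt and the same tissue. The strain, the age and sex of the animals, the cell type in which Lag3 was deleted, the part of the gene removed and the sorting markers are not stated in the labels used here. Neither do they say that replicates are separate animals or sorts, so the p-values below measure the spread between these libraries, which may be technical.

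LAG-3 is an inhibitory receptor of activated T cells that resembles CD4 and binds MHC class II. It is carried both by effector T cells, in which it restrains activation, and by part of the Tregs. Tregs are CD4 T cells defined by the transcription factor Foxp3. They need interleukin 2 (IL-2) from other cells, which acts through the high-affinity IL-2 receptor and the transcription factor STAT5, and in autoimmune diabetes they act within the islet infiltrate against the T cells that destroy beta cells.

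Levels are given in CPM, the counts of a gene per 1e6 counts of its library, computed from the rescaled counts that were deposited, with scaling by trimmed means of log ratios (TMM). The column headers number the libraries of a group 1, 2 and again 1, and the libraries are called 1a, 2 and 1b here. The 3 values of a gene are always given in that order. The rescaled totals of the 12 libraries lay between 15232498 and 15370098, which hides their sequencing depth. From the steps in the rescaled values, the depth before rescaling came to 25.4 M, 5.5 M and 19.1 M reads (M, 1e6) for the Lag3-deficient islet libraries. It came to 20.9 M for Wt islet 2 and 16 M for Wt islet 1b, and it was not resolved for Wt islet 1a. Lag3-deficient islet 2 was thus the shallowest islet library whose depth could be read. It held 3289 of the 10868 tested genes (those with 10 or more rescaled counts in 3 or more of the 12 libraries) below 1 CPM, against 2698 and 1817 in libraries 1a and 1b of its group and 1848, 1891 and 2210 in the Wt libraries. Genes that were at 20 CPM or more in a library and below 1 CPM in another of the same group numbered 1660 among the Lag3-deficient islet libraries (15.3%) and 955 among the Wt ones (8.79%). Spearman correlations between libraries, across genes, were 0.661 to 0.733 within the Lag3-deficient islet group and 0.757 to 0.785 within the Wt islet group. The ribosomal RNA gene Rn45s took 1.26% to 1.68% of the signal in the 4 libraries called 1b, of which each group has 1, and 0.149% to 0.571% in the other 8. With that set of libraries as a term in the fit, an alternative added after seeing the data, 0 genes passed the adjusted threshold and 659 had an unadjusted p under 0.05.

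**Figure D1:**
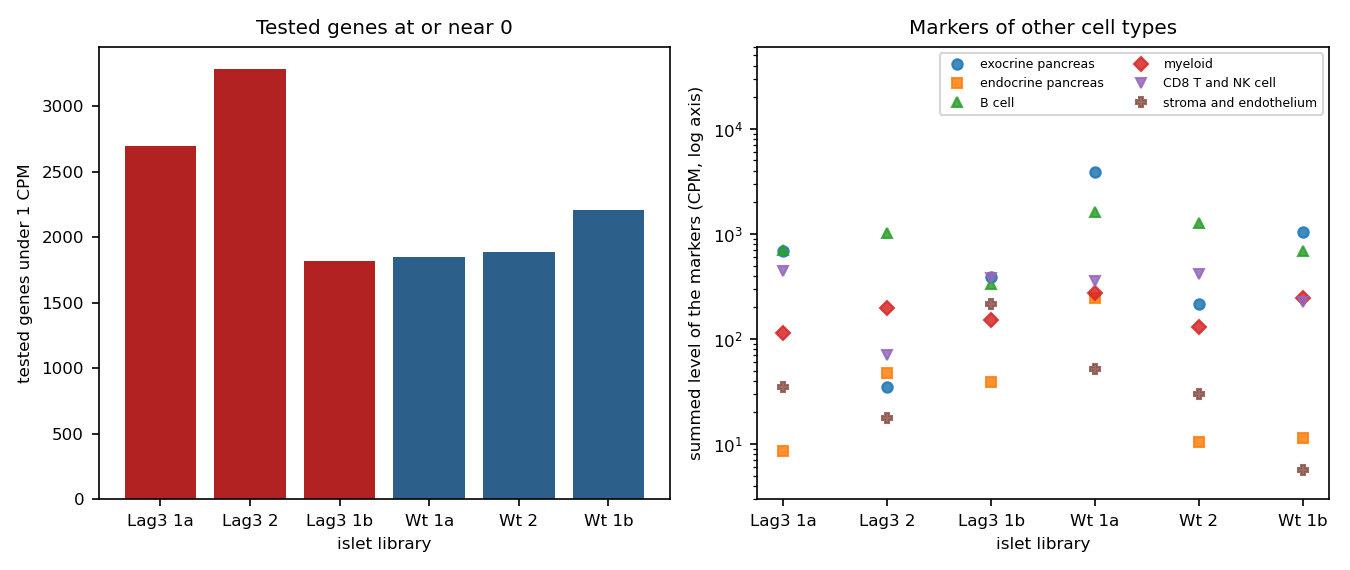
Left, the number of tested genes below 1 CPM in each of the 6 islet libraries (bars from 0; red, Lag3-deficient; blue, Wt). Right, the summed level of the markers of 6 other cell types in each library, in CPM on a log axis. Lag3-deficient islet 2 has the tallest bar, at 3289 genes, and exocrine pancreas markers run from 35.3 CPM in that library to 3845 CPM in Wt islet 1a.

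The Treg label was borne out by the markers in every islet library. Foxp3, the defining transcription factor (chromosome X, 7573644 to 7595245, mm10 coordinates of the GENCODE M21 gene), was at 483, 224 and 341 CPM in the Lag3-deficient libraries and at 337, 472 and 392 CPM in the Wt libraries. Cd4 was at 240, 183 and 115 CPM against 230, 263 and 134 CPM, and Cd3e, a subunit of the T cell receptor complex, at 98.9, 72 and 120 CPM against 81.8, 60.2 and 116 CPM. These 3 genes thus overlapped between the genotypes and were well above 0 in all 6 libraries. Markers of other cells were present as well. Cd8a was at 0, 16.4 and 9.99 CPM against 3.87, 0 and 0.542 CPM, and the CD8 T and NK cell markers summed to between 70.7 and 442.5 CPM. Most of that sum was Nkg7, at 439.5, 50.7 and 369.9 CPM against 345, 398.2 and 207.8 CPM. Prf1 and Cd8b1 of the same list reached at most 4.62 and 2.57 CPM in the islet libraries. The B cell markers summed to between 337 and 1608 CPM, with Pax5 the only one of 15 at 0 in all 6 libraries. H2-Eb1, an MHC class II chain, was at up to 313 CPM. The list also holds H2-Aa, H2-Ab1 and Cd74, and these class II genes are not particular to B cells. The sum is therefore no measure of B cells alone. Of 22 exocrine pancreas genes only Amy2a5 was at 0 in all 6 libraries. Their summed level ran from 35.3 to 682 CPM in the Lag3-deficient libraries and from 213 to 3845 CPM in the Wt libraries, against at most 4.91 CPM in any NDL library.

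Lag3, the targeted gene (chromosome 6, 124904361 to 124911705, minus strand), was first set against the labels. Its deposited rescaled counts were 1, 0 and 0 in the Lag3-deficient islet libraries and 40, 48 and 120 in the Wt islet libraries. In CPM these were 0.0754, 0 and 0 against 2.76, 3.52 and 8.13. All 3 Wt values lay above all 3 Lag3-deficient values, so the labels and the transcript went the same way. The fitted difference was -2.39 ± 0.62 (SE) on the log2(CPM + 1) scale, with an unadjusted p of 0.00106 and an adjusted p of 0.85 (limma, Benjamini-Hochberg over all genes tested). With counts so near 0 that difference depends on the added 1 CPM and is no bound on the fold. In the NDL libraries Lag3 was near 0 in both genotypes, at 0.0479, 0 and 0.225 CPM in the Lag3-deficient libraries and 0.123, 0.303 and 0.435 CPM in the Wt libraries, so there the gene gave no check of the labels.

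Across the transcriptome, no gene passed the threshold between Lag3-deficient and Wt islet Tregs. Of 10868 genes tested, 0 (0%) had an adjusted p under 0.05 by limma, and voom weights also gave 0. The smallest adjusted p was 0.364. The unadjusted p was under 0.05 for 624 genes (5.74%), and 0.05 of the genes tested is 543. Of the 624, 135 (1.24%) had a higher mean in the Lag3-deficient libraries and 489 (4.5%) a lower mean. Groups that did not overlap, with every library of a genotype above every library of the other, were found for 1013 genes (9.32%). Scaling by median ratios gave 203 higher and 386 lower genes at an unadjusted p under 0.05, and the second deposited table gave 257 and 293. The median difference over all genes tested was -0.22, and it was -0.03 with median-ratio scaling. Differences below are therefore to be read against the median of all genes and not against 0. That median varied with the mean islet level of the genes on the log2 scale. It was -0.06 for genes under 2, -0.49 between 2 and 4 and -0.4 between 4 and 6. For genes between 6 and 8 it was -0.15, and at 8 and over it was -0.05. The share of genes with a difference above 0 was 39.6%. It was 48.7% with median-ratio scaling, 49% without Lag3-deficient islet 2 and 36.9% without Lag3-deficient islet 1b. The median of all genes was -0.02 without islet 2 and -0.37 without islet 1b. List values under these settings are to be read against those of all genes under the same setting.

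The shallow library Lag3-deficient islet 2 often held the lowest value. Among the 489 genes with a lower mean, it was the lowest of the 6 islet libraries for 243 (49.7%), and among all genes tested it was the lowest for 34.2%. Lag3-deficient islet 1a was the lowest for 175 of the 489 (35.8%) and islet 1b for 60 (12.3%). The scaling factor of islet 2 was 1.185 by TMM and 0.786 by median ratios, and a larger factor lowers every CPM value of a library. Genes below 1 CPM numbered 2698 in Lag3-deficient islet 1a, read at 25.4 M, and 3205 in Lag3-deficient NDL 1b, read at 13.8 M. The parts of depth and scaling in the low values of islet 2 were not tested. Without islet 2, 520 genes had an unadjusted p under 0.05, 204 with a higher and 316 with a lower mean, and the median over all genes was -0.02. Library 1b of the same group moved the count past the adjusted threshold. When it was left out, 16 genes passed, 4 with higher and 12 with lower values, and 975 had an unadjusted p under 0.05. Their values are given after the leading genes. Leaving out any other islet library left 0 genes past it.

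The precision of the comparison varied with the level of the gene. The standard error of the log2 difference had a median of 1.06 over all genes, which gives a 95% interval of ±2.22. For the 606 genes with a mean level of 8 or more on the log2 scale the interval was ±0.88, and for the 1955 genes between 6 and 8 it was ±1.3. For the 2811 genes between 2 and 4 it was ±2.93. A p that missed the threshold does not show that the genotypes were alike.

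**Figure D2:**
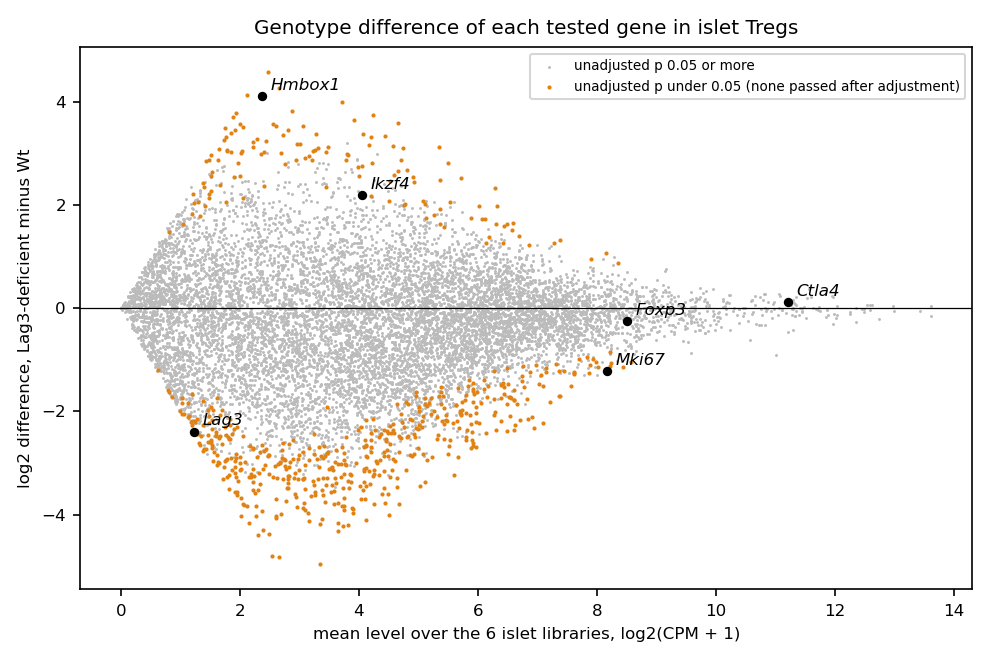
Each point is 1 of the 10868 genes tested in islet Tregs, with its mean level over the 6 islet libraries on the x axis (log2(CPM + 1)) and the genotype difference on the y axis (log2, Lag3-deficient minus Wt). Orange marks the 624 genes with an unadjusted p under 0.05, of which 489 lie below 0, and black marks 6 named genes.

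The genotype difference was then compared with that of the NDL Tregs. No gene had a genotype difference that differed between the tissues at an adjusted p under 0.05 (0 of 10868, 0%, by limma), and 437 (4.02%) did at an unadjusted p under 0.05. Between the NDL libraries themselves 0 genes passed the adjusted threshold and 296 (2.72%) the unadjusted p. No gene of the islet comparison is therefore called particular to islets.

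The gene with the smallest p in islets was Hmbox1, which encodes a homeobox protein that binds telomeric DNA (chromosome 14, 64811600 to 64949871, minus strand). It was at 18.9, 16 and 28.5 CPM in the Lag3-deficient libraries and at 0.69, 0 and 0.136 CPM in the Wt libraries. All 3 Lag3-deficient libraries held it, and the Wt libraries were at or near 0. The difference was 4.12 ± 0.77 (SE; 95% interval 2.51 to 5.72; unadjusted p = 3.35e-05, adjusted p = 0.364, limma). No NDL library of either genotype held more than 0.184 CPM. Irak3, an inhibitor of Toll-like and IL-1 receptor signalling (chromosome 10, 120141648 to 120202130, minus strand), had the next smallest p among the genes given here. It was at 0, 0.441 and 0.139 CPM in the Lag3-deficient libraries against 38.6, 62.9 and 13.8 CPM in the Wt libraries, a difference of -4.83 ± 1.01 (adjusted p = 0.662, limma). Pex2, a peroxisome assembly factor, was at 1.51, 1.54 and 1.53 CPM against 81.6, 16 and 54.2 CPM. Its difference was -4.08 in islets and 2.55 in the NDL libraries. None of the 3 genes overlapped between the islet genotypes. They were chosen after their values were seen.

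Among genes with a mean level of at least 4 on the log2 scale, the 12 with the smallest p and a higher mean in Lag3-deficient islet Tregs had differences from 1.4 to 3.76. Their unadjusted p ran from 0.00192 to 0.0145, and the adjusted p of each was 0.85 (limma). The cell surface gene of this group was Slamf6, a SLAM family receptor that recruits the adaptor SAP in T cells. It was at 175, 85.2 and 123 CPM in the Lag3-deficient libraries and at 55.1, 26.3 and 31.9 CPM in the Wt libraries. The groups did not overlap, and the difference was 1.74 ± 0.65. Rap2c, a small GTPase of the Ras family, was at 153, 135 and 161 CPM against 35.8, 91.5 and 35.6 CPM. Dusp19, a dual-specificity phosphatase, was at 75.6, 62.5 and 67.6 CPM against 8.63, 1.69 and 11.2 CPM, a difference of 3.35 ± 1.24. These Lag3-deficient libraries lay close together, and every Wt library was lower.

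Both of the next genes act in ribosome production, and no list of such genes was tested. Tcof1, the nucleolar protein treacle, was at 146, 138 and 98.4 CPM against 61.5, 45.4 and 17.9 CPM. Twistnb, a subunit of RNA polymerase I, was at 238, 108 and 183 CPM against 63.9, 66.2 and 58.4 CPM, a difference of 1.40 ± 0.51. Neither gene overlapped between the genotypes. Uba3, the catalytic subunit of the NEDD8-activating enzyme, was at 126, 288 and 109 CPM against 34.1, 64.9 and 27.5 CPM. Trim26, a ubiquitin ligase, was at 220, 118 and 65.8 CPM against 80.7, 22.2 and 0.407 CPM. In Trim26 the Wt library 1a lay above Lag3-deficient library 1b, so the groups overlapped.

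The remaining 5 genes with higher means were Tbcb, AI837181, Parp10, Pcgf6 and Zfp758. Tbcb, a tubulin folding cofactor, was at 109, 235 and 194 CPM against 76.1, 41.4 and 48.5 CPM. AI837181 was at 93.3, 111 and 45.4 CPM against 23.3, 2.13 and 9.08 CPM, and had the smallest p of the 12. Parp10, an ADP-ribosyltransferase, was at 72.7, 20.1 and 100.3 CPM against 9.59, 10.6 and 6.58 CPM. Pcgf6, a Polycomb group protein, and Zfp758, a zinc finger protein, were at 0 in Wt islet 1b, and Zfp758 overlapped between the genotypes. In all, 10 of the 12 genes did not overlap, and over all genes 3.29% did not overlap with the Lag3-deficient libraries higher. These genes were picked by their p in the same libraries, so that share is a description only. The genotype difference in the NDL libraries did not enter the choice, although those libraries share in the filter and the spread of the fit. There, 8 of the 12 had a difference above 0, with a range from -0.63 to 1.16 and a smallest unadjusted p of 0.148 (limma).

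The 12 genes with the smallest p and a lower mean in Lag3-deficient islet Tregs had differences from -4.11 to -1.85, and none overlapped between the genotypes. Over all genes 6.03% did not overlap with the Lag3-deficient libraries lower. Unadjusted p ran from 0.000773 to 0.00317, and the adjusted p of each was 0.85 (limma). Xpot, the exportin that carries tRNA out of the nucleus, was at 2.71, 2.92 and 7.35 CPM in the Lag3-deficient libraries and at 39.6, 108 and 41.2 CPM in the Wt libraries, a difference of -3.53 ± 0.89. Ssu72, a phosphatase of the RNA polymerase II tail, was at 34.8, 86 and 47.7 CPM against 194, 190 and 191 CPM. The 3 Wt libraries were nearly equal for Ssu72, and the difference was -1.85 ± 0.53.

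Atm, the kinase that responds to DNA double-strand breaks, was at 36, 4.02 and 30 CPM against 110 (Wt 1a), 140 (Wt 2) and 71.4 (Wt 1b) CPM. Tipin, which stabilises replication forks together with Timeless, was at 4.22, 45 and 58.4 CPM against 137, 140 and 170 CPM, a difference of -2.62 ± 0.78. The lowest library differed between these genes, islet 2 for Atm and islet 1a for Tipin. Azin1, the antizyme inhibitor that favours polyamine synthesis, was at 84, 17.1 and 76.5 CPM against 158, 271 and 246 CPM, a difference of -2.16 ± 0.62.

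Exoc5, a subunit of the exocyst, was at 0.301, 5.67 and 35.2 CPM against 165, 131 and 38.1 CPM. Snx3, a sorting nexin of endosomes, was at 132, 13.8 and 84.2 CPM against 315, 444 and 150 CPM. Cript, a PDZ-binding protein, was at 44.1, 12.6 and 98.3 CPM against 165 (Wt 1a), 236 (Wt 2) and 217 (Wt 1b) CPM, a difference of -2.38 ± 0.61. For Exoc5 the groups were separated by a narrow gap between the libraries called 1b. The ubiquitin ligase Rnf111, which takes part in TGF-beta signalling, was at 10.1, 6.94 and 67.3 CPM against 117, 130 and 99.9 CPM. Jkamp, Strbp and Ccdc124 completed the group, with differences of -3.45, -3.27 and -4.11. Over the NDL libraries 4 of these 12 genes had a difference below 0, with a range from -0.44 to 1.19 and a smallest unadjusted p of 0.0768.

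**Figure D3:**
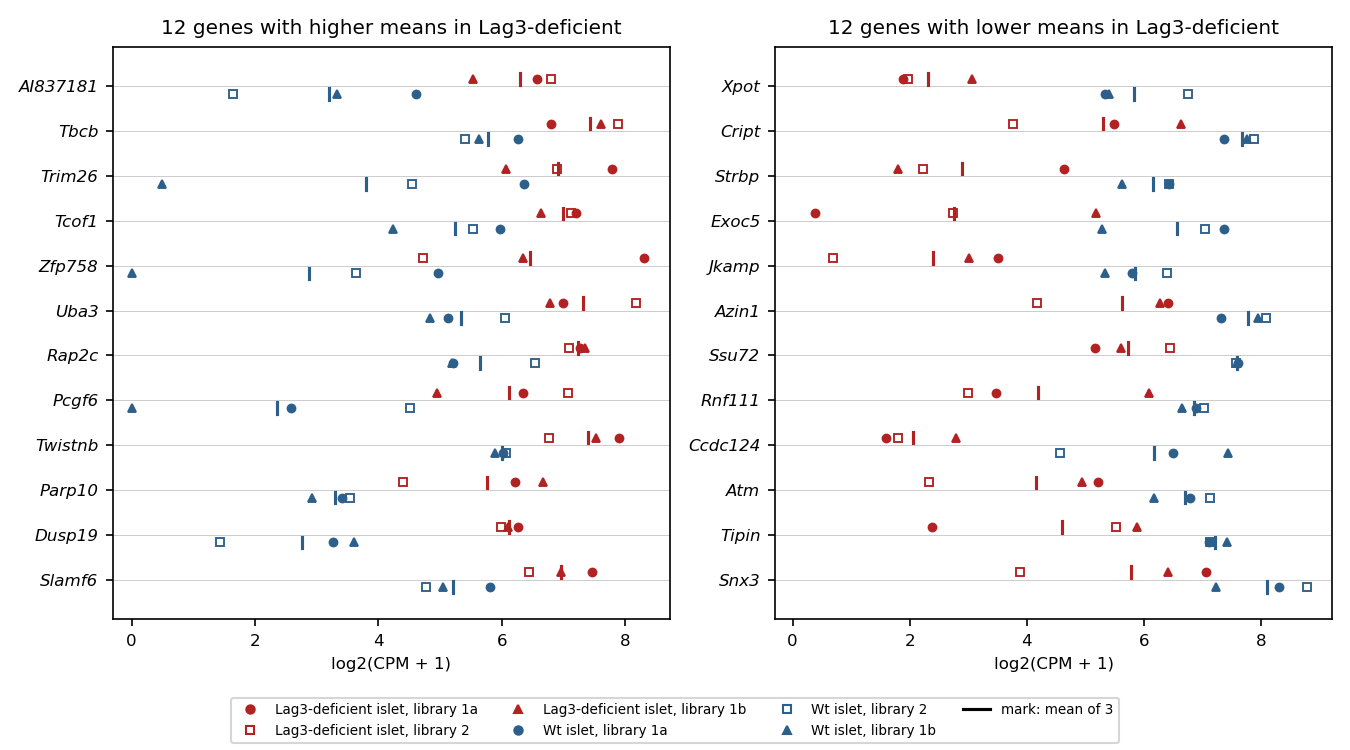
Level of each leading gene in the 6 islet libraries, as log2(CPM + 1) on the x axis. Red symbols are Lag3-deficient and blue symbols Wt libraries (circle 1a, open square 2, triangle 1b), and vertical marks are means of 3; the genotypes overlap for Trim26 and Zfp758 on the left and for no gene on the right.

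The 16 genes that passed the adjusted threshold without Lag3-deficient islet 1b were read against their values in that library. Hmbox1 was the only one of the 4 higher genes that the omitted library also held, and Ccdc74a, Epb4.1l4a and Mtmr11 were below 1 CPM there. Epb4.1l4a, a membrane-cytoskeleton protein, was at 56.7, 48.7 and 0 CPM against 0, 0.0734 and 0 CPM. Mtmr11, of the myotubularin family, was at 30.9, 41.6 and 0.0694 CPM and at 0 in the 3 Wt libraries. Of the 12 lower genes, 7 had a value in the omitted library that lay within or above the Wt range. Tgfbr1, the type I TGF-beta receptor, was among them, at 6.56, 18.1 and 188 CPM against 85.4, 166 and 188 CPM. Ndufv2, a subunit of respiratory complex I, was at 19, 32.5 and 244 CPM against 239, 268 and 217 CPM. For Cript, Exoc5, Filip1l, Fnta and Ppcs all 3 Lag3-deficient libraries lay below the Wt libraries. Fnta, the shared alpha subunit of farnesyl and geranylgeranyl transferase, was at 0.0754, 0.33 and 23.9 CPM against 66.2, 59.9 and 52.5 CPM.

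No Treg identity gene stood apart between the genotypes in islets at an unadjusted p under 0.05. Of the 20 members of the list, all were tested and 9 had a difference above 0. The median difference was -0.10, beside -0.22 over all genes. With median-ratio scaling 14 of 20 were above 0 with a median of 0.14, and without Lag3-deficient islet 2 16 of 20 with 0.15. Of all genes 48.7% and 49% were above 0 in those settings. The difference of Foxp3 was -0.25 ± 0.40 (95% interval -1.09 to 0.58). Ctla4, the inhibitory receptor that Tregs carry at high levels, was at 3371, 1825 and 2439 CPM in the Lag3-deficient libraries and at 2126, 2742 and 2024 CPM in the Wt libraries. Its difference was 0.12 ± 0.34 (95% interval -0.59 to 0.82). Tnfrsf18 (GITR), a costimulatory receptor of Tregs, was at 599, 402 and 693 CPM against 587, 385 and 549 CPM. Nrp1, the semaphorin receptor neuropilin 1, was at 186, 146 and 252 CPM against 136, 179 and 173 CPM. Entpd1 (CD39), the ectoenzyme that degrades extracellular ATP, was at 47.5, 0.441 and 26.4 CPM against 18.2, 25.1 and 31.7 CPM. The groups overlapped for every one of the 20 genes, and the single low Entpd1 value was in the shallow library.

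Of the Ikaros family of zinc finger factors, Ikzf4 (Eos), a partner of Foxp3 in gene repression, had the largest difference (chromosome 10, 128630843 to 128645991, minus strand). It was at 8.14, 68.2 and 69.4 CPM in the Lag3-deficient libraries and at 6.83, 8.73 and 5.08 CPM in the Wt libraries. The Lag3-deficient libraries 2 and 1b were thus high, and the remaining library, 1a, lay below Wt islet 2. The difference was 2.19 ± 1.05 (95% interval from about 0 to 4.39; unadjusted p = 0.0501, adjusted p = 0.869, limma). Its NDL values were 64.3, 22.8 and 15.6 CPM against 80.8, 21.3 and 27.9 CPM. The Wt islet libraries were thus the lowest of the 4 groups. Ikzf2 (Helios), a marker of most thymus-derived Tregs, was at 635, 577 and 738 CPM against 856, 763 and 624 CPM. Ikzf1 and Ikzf3 overlapped between the genotypes too, Ikzf3 at 226, 49.6 and 157 CPM against 75.6, 162 and 78.4 CPM.

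**Figure D4:**
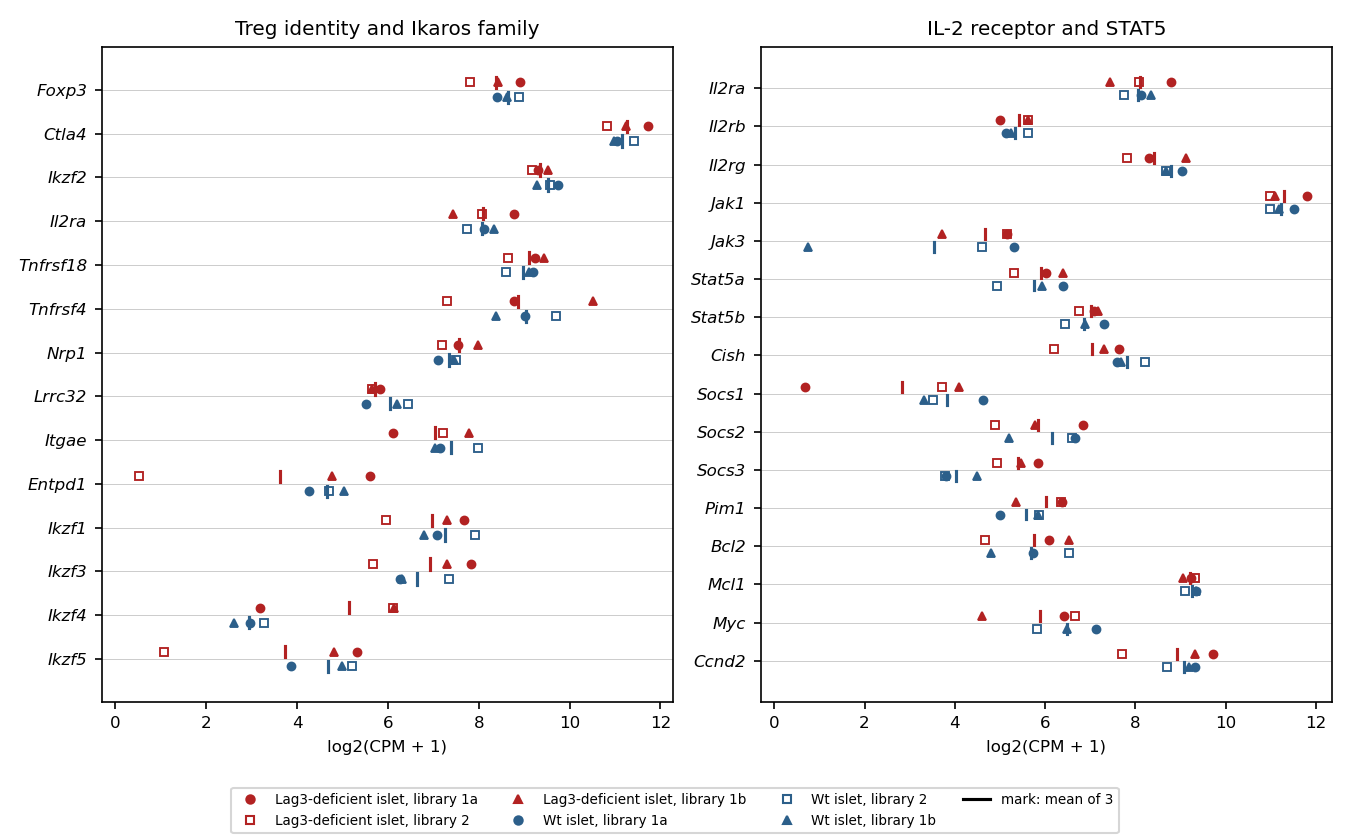
Levels of Treg identity and Ikaros family genes (left) and of IL-2 receptor and STAT5 genes (right) in the 6 islet libraries, as log2(CPM + 1). Symbols are as in the plot of leading genes, with means of 3 as vertical marks; Socs3 is the only gene shown whose genotypes do not overlap, and 2 of the 3 Lag3-deficient libraries stand above the Wt libraries for Ikzf4.

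The genes of IL-2 and STAT5 signalling were placed beside the Treg list because STAT5 is the factor through which IL-2 maintains Foxp3. Cish and Socs3 encode feedback inhibitors of cytokine receptor signalling, and they were the 2 members of the list whose promoter windows held the letters TTCNNNGAA. STAT dimers are known to bind such palindromes, which read the same on both strands. Windows from 250 bases before to 50 after the RefSeq start were found for 16 of the 20 members, and 12.5% of these genes held the letters, beside 9.55% of 27025 genes with a window. A stretch of each is shown from RefSeq (GRCm38.p6) with the matches in capitals, since these genes had differences of opposite sign. The Cish stretch is chr9:107296529-107296678 on the plus strand, with a match that begins at the start site and a further match beginning 11 bases after it. The Socs3 stretch is chr11:117969437-117969586 on the minus strand, with the match 154 bases before the start. A match of letters is a description and not a bound site.
Cish: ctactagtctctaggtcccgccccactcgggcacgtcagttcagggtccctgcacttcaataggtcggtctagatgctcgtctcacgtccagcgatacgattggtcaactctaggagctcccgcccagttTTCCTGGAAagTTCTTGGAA
Socs3: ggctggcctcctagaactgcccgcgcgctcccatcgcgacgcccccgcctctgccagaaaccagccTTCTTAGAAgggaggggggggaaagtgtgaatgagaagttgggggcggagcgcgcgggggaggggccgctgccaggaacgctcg

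Cish was at 198, 72.5 and 156 CPM in the Lag3-deficient libraries and at 190, 295 and 203 CPM in the Wt libraries. The ranges met between Lag3-deficient islet 1a and Wt islet 1a, and the difference was -0.78 ± 0.54 (unadjusted p = 0.164, limma). Socs3 was at 56.4, 29.4 and 42.9 CPM against 13 (Wt 1a), 12.7 (Wt 2) and 21.6 (Wt 1b) CPM. Every Lag3-deficient library lay above every Wt library, and the difference was 1.38 ± 1.07 (unadjusted p = 0.212, limma). Il2ra, the alpha chain that makes the receptor high-affinity, was at 438, 269 and 171 CPM against 276, 214 and 322 CPM, a difference of 0.03 ± 0.44. Stat5a was at 63.8, 38.7 and 83.1 CPM against 82.7, 29.3 and 60 CPM, and Stat5b at 136, 107 and 143 CPM against 156, 85.7 and 116 CPM. The receptor chain and both STAT5 genes thus overlapped. Bcl2, a survival gene downstream of cytokine receptors, was at 67.2, 24.3 and 90.9 CPM against 52.1, 90.6 and 26.8 CPM. Of the 20 members 9 had a difference above 0 (45%, beside 39.6% of all genes), 0 had an unadjusted p under 0.05, and the median was -0.05. With median-ratio scaling 13 were above 0 and the median was 0.19, and without Lag3-deficient islet 2 11 and 0.07. The shares of all genes above 0 were then 48.7% and 49%.

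Among the inhibitory receptors only Lag3, the targeted gene, and Cd5 had an unadjusted p under 0.05 by limma. Both were lower, and 4.5% of all genes were lower at that p. Of 14 members tested, 5 had a difference above 0 (35.7%, beside 39.6% of all genes). Cd5, which dampens T cell receptor signalling and tracks its strength, was at 193, 151 and 312.5 CPM against 419, 512 and 379 CPM. All 3 Lag3-deficient libraries lay below the Wt libraries, and the difference was -1.05 ± 0.40 (unadjusted p = 0.0171, adjusted p = 0.85, limma). Its NDL values were 367.5, 379 and 316 CPM against 441, 482 and 255 CPM. Pdcd1 (PD-1) was at 132, 58.5 and 109 CPM against 130 (Wt 1a), 147 (Wt 2) and 166 (Wt 1b) CPM. Tigit was at 55.3, 73.9 and 43.4 CPM against 37.8, 60.7 and 40.3 CPM. Havcr2 (TIM-3) was at 0.829, 0.33 and 22.2 CPM against 9.52, 0.734 and 8 CPM. The groups overlapped for Pdcd1, Tigit and Havcr2. In all, 3 members were lower without overlap, beside 6.03% of all genes. These were Lag3, Cd5 and Cd244, the last near 0 at 0.226, 0.165 and 0.139 CPM against 0.483, 4.55 and 0.814 CPM. The median of the list was -0.30, and with median-ratio scaling 7 of 14 were above 0 with a median of -0.12.

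Effector Treg genes had 26 members tested, of which 10 had a difference above 0, none had an unadjusted p under 0.05 by limma, and the median was -0.12. This split moved with the library left out. Without Lag3-deficient islet 2 it was 18 of 26 and 0.16, and without islet 1b 8 of 26 and -0.53. With median-ratio scaling it was 15 of 26 and 0.12. Of all genes, 49%, 36.9% and 48.7% were above 0 in these settings, in that order. Tnfrsf9 (4-1BB), a costimulatory receptor induced by activation, was at 36.5, 91.1 and 172 CPM in the Lag3-deficient libraries and at 212, 196 and 214 CPM in the Wt libraries. The groups did not overlap, and the spread among the Lag3-deficient libraries was wide, with a difference of -1.31 ± 0.98. Gata3, a lineage factor found in tissue Tregs, was at 142, 24.9 and 72.9 CPM against 68.6, 141 and 101 CPM. Tbx21 (T-bet), the factor of type 1 responses, was at 27.4, 4.74 and 10.1 CPM against 10 (Wt 1a), 1.69 (Wt 2) and 3.05 (Wt 1b) CPM. Within each genotype library 2 was the lowest for Tbx21. Of 15 effector cytokine genes 4 passed the filter on low values. Among them Ifng was at 48.2, 3.25 and 55.3 CPM against 25.5, 60.9 and 71 CPM.

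T cell receptor signalling genes had 19 members tested, 6 with a difference above 0, none with an unadjusted p under 0.05 by limma, and a median of -0.13. With median-ratio scaling and without Lag3-deficient islet 2 alike, 11 of 19 were above 0, with medians of 0.11 and 0.09. Zap70, the kinase that binds the phosphorylated receptor, was at 182, 30.2 and 400 CPM against 266.5, 240 and 298 CPM. The early response genes, which follow receptor stimulation within an hour or so, had a difference above 0 in 14 of 21 (66.7%, beside 39.6% of all genes) and a median of 0.16. With median-ratio scaling the median was 0.39. None of them had an unadjusted p under 0.05. Junb, an AP-1 subunit, was at 157, 147 and 235 CPM against 135, 88.4 and 104 CPM, without overlap and with a difference of 0.71 ± 0.67. Cd69, an early activation marker, was at 670.5, 491 and 354 CPM against 269, 428 and 309 CPM. Egr1 was at 138, 31.9 and 104 CPM against 92.8, 188.5 and 115 CPM, and the groups overlapped for both Cd69 and Egr1.

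Proliferation genes were given in their phases of the cell cycle, since the study asks about Treg proliferation. Mki67, the proliferation marker Ki-67, was at 100, 158 and 420 CPM in the Lag3-deficient libraries and at 241, 657 and 528 CPM in the Wt libraries. Lag3-deficient islet 1b lay inside the Wt range and the other 2 below it. The difference was -1.21 ± 0.67 (95% interval -2.62 to 0.20; unadjusted p = 0.0878, limma). Of the 24 mitosis genes tested, 7 had a difference above 0, none had an unadjusted p under 0.05 by limma, and the median was -0.44. Stmn1, which destabilises microtubules, was at 358, 326 and 209 CPM against 472, 790.2 and 330 CPM. Nusap1, a spindle protein, was at 29, 12.3 and 140 CPM against 114, 171 and 68.8 CPM. Without the shallow library Lag3-deficient islet 2 the median of the mitosis list was -0.12, beside -0.02 for all genes. Without islet 1b it was -0.96, beside -0.37 for all genes.

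Of the 25 DNA replication genes tested, 5 had a difference above 0 (20%), and 3 had a lower mean at an unadjusted p under 0.05, a share to be read against 4.5% of all genes. These were Orc1, Pola1 and Uhrf1. Orc1, a subunit of the origin recognition complex, was at 0.151, 4.74 and 0 CPM against 8.35, 12.5 and 27.8 CPM, a difference of -3.03 ± 0.90. Pola1, the catalytic subunit of DNA polymerase alpha, was at 9.12, 0.936 and 12.8 CPM against 28 (Wt 1a), 52.3 (Wt 2) and 67.3 (Wt 1b) CPM. Uhrf1, which guides maintenance DNA methylation, was at 11.3, 4.9 and 37.6 CPM against 57.5, 101 and 41.2 CPM. None of the 3 overlapped, and the adjusted p of each was between 0.85 and 0.864. Mcm6, of the replicative helicase, was at 145, 71 and 351 CPM against 237, 551 and 309 CPM, and did overlap. The median of the list was -0.54, and without Lag3-deficient islet 2 it was -0.41.

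Of the PI3K, Akt and Foxo genes, 4 of 17 tested had a lower mean at an unadjusted p under 0.05, beside 4.5% of all genes, and the median was -0.54. Pik3ip1, an inhibitor of PI3K, was at 0.754, 0.165 and 3.12 CPM in the Lag3-deficient libraries and at 6.49, 9.1 and 33.6 CPM in the Wt libraries. Rheb, the GTPase that activates mTORC1, was at 63.4, 0.606 and 140 CPM against 169, 157 and 147.5 CPM. Rps6kb1, the S6 kinase downstream of mTORC1, was at 38.5, 6.28 and 58.8 CPM against 107, 207 and 52.5 CPM. Pik3cd, the leukocyte PI3K subunit p110 delta, was at 68.4, 2.75 and 67.2 CPM against 119, 41.2 and 170 CPM. The genes named thus include both an inhibitor and activators of the pathway. For all 4 genes the lowest value was in the shallow library Lag3-deficient islet 2, and the median of the list was -0.06 without that library. The median of all genes was then -0.02.

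Interferon-induced genes went both ways. Of 22 tested, 1 had a higher and 4 a lower mean at an unadjusted p under 0.05, beside 1.24% and 4.5% of all genes. A difference above 0 was found for 7, and the median was -0.48. Without Lag3-deficient islet 2 the median was -0.23. Gbp3, a guanylate-binding protein, was at 241, 196 and 294 CPM in the Lag3-deficient libraries and at 50 (Wt 1a), 194 (Wt 2) and 101 (Wt 1b) CPM in the Wt libraries, a difference of 1.26 ± 0.58. Zbp1, a sensor of left-handed nucleic acid helices, was at 8.29, 1.1 and 2.84 CPM against 17.2, 18.7 and 68.5 CPM, a difference of -2.79 ± 1.02. Stat2, which carries type I interferon signals, was at 74.5, 1.38 and 42.2 CPM against 104, 117 and 57.4 CPM, and Ifi35 at 2.11, 61.3 and 50.6 CPM against 101, 61.4 and 117 CPM. Gbp3, Zbp1 and Ifi35 did not overlap, though Gbp3 and Ifi35 were separated by a small gap at library 2.

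Among metabolic genes, the respiratory chain list had 3 lower members of 27 at an unadjusted p under 0.05, beside 4.5% of all genes. Its median was -0.16 with 11 of 27 above 0. Without Lag3-deficient islet 2 it was -0.05, and with median-ratio scaling it was 0.08 with 16 of 27 above 0. These were Ndufv2, given above, Sdhd of complex II and Uqcrc1 of complex III. Sdhd was at 105, 12.4 and 167 CPM against 159, 296 and 193 CPM. Uqcrc1 was at 154, 14.8 and 319 CPM against 220.4, 360 and 336 CPM. Sdhd and Uqcrc1 were lowest in the shallow library, and all 3 genes overlapped between the genotypes. The glycolysis and hypoxia list had 7 of 20 above 0 and a median of -0.09, and 12 of 20 and 0.13 with median-ratio scaling. Its member Egln3, an oxygen-sensing prolyl hydroxylase, was at 81.1, 7.54 and 20.9 CPM against 8.7, 0.514 and 1.22 CPM, a difference of 2.96 ± 1.19 (unadjusted p = 0.0218, limma). Of 19 cholesterol synthesis genes 5 had a difference above 0, none had an unadjusted p under 0.05 by limma, and the median was -0.76. Without Lag3-deficient islet 2 the median was -0.36. Hmgcs1, the cytosolic HMG-CoA synthase, was at 47.3, 3.08 and 47.4 CPM against 86.3, 141 and 137 CPM, without overlap.

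Of the genes of the unfolded protein response, 4 of 20 had a difference above 0 (20%, beside 39.6% of all genes) and the median was -0.31. With median-ratio scaling 8 of 20 were above 0 with a median of -0.07, and without Lag3-deficient islet 2 also 8, with a median of -0.04. Pdia3, a disulfide isomerase of the endoplasmic reticulum, was at 80.3, 72.2 and 236 CPM against 287, 310 and 368 CPM, a difference of -1.51 ± 0.55 (unadjusted p = 0.0123, adjusted p = 0.85, limma). Xbp1, a transcription factor of the same response, was at 110 (Lag3-deficient 1a), 228 (2) and 106 (1b) CPM against 101, 82.5 and 39.3 CPM. Neither gene overlapped, and their differences had opposite signs, Xbp1 being among the 4 members above 0. Atf6 and Creld2 overlapped between the genotypes, with differences of -2.63 and -2.28.

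Naive and recirculating T cell genes had 9 of 14 with a difference above 0 and a median of 0.15, and 2 members had a lower mean at an unadjusted p under 0.05, beside 4.5% of all genes. Dapl1 was at 0.0754, 0 and 0.0694 CPM in the Lag3-deficient libraries and at 3.66, 11.2 and 8.61 CPM in the Wt libraries. Actn1, the cytoskeletal protein alpha-actinin 1, was at 10.6, 0.33 and 39 CPM against 77.6, 42.8 and 22.9 CPM. Bach2, a repressor that keeps T cells quiescent, was at 15.7, 8.15 and 38.6 CPM against 12.7, 5.79 and 4.27 CPM. Dapl1 separated the genotypes, and Actn1 and Bach2 did not. Of chemokine receptors and integrins, 10 of 20 had a difference above 0, none had an unadjusted p under 0.05 by limma, and 3 did not overlap with the Lag3-deficient libraries higher, beside 3.29% of all genes. With median-ratio scaling 13 of 20 were above 0. Itgav, the integrin alpha V chain, was among them, at 109.7, 104 and 156 CPM against 20.8, 65.5 and 83.2 CPM (unadjusted p = 0.0841, limma).

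**Figure D5:**
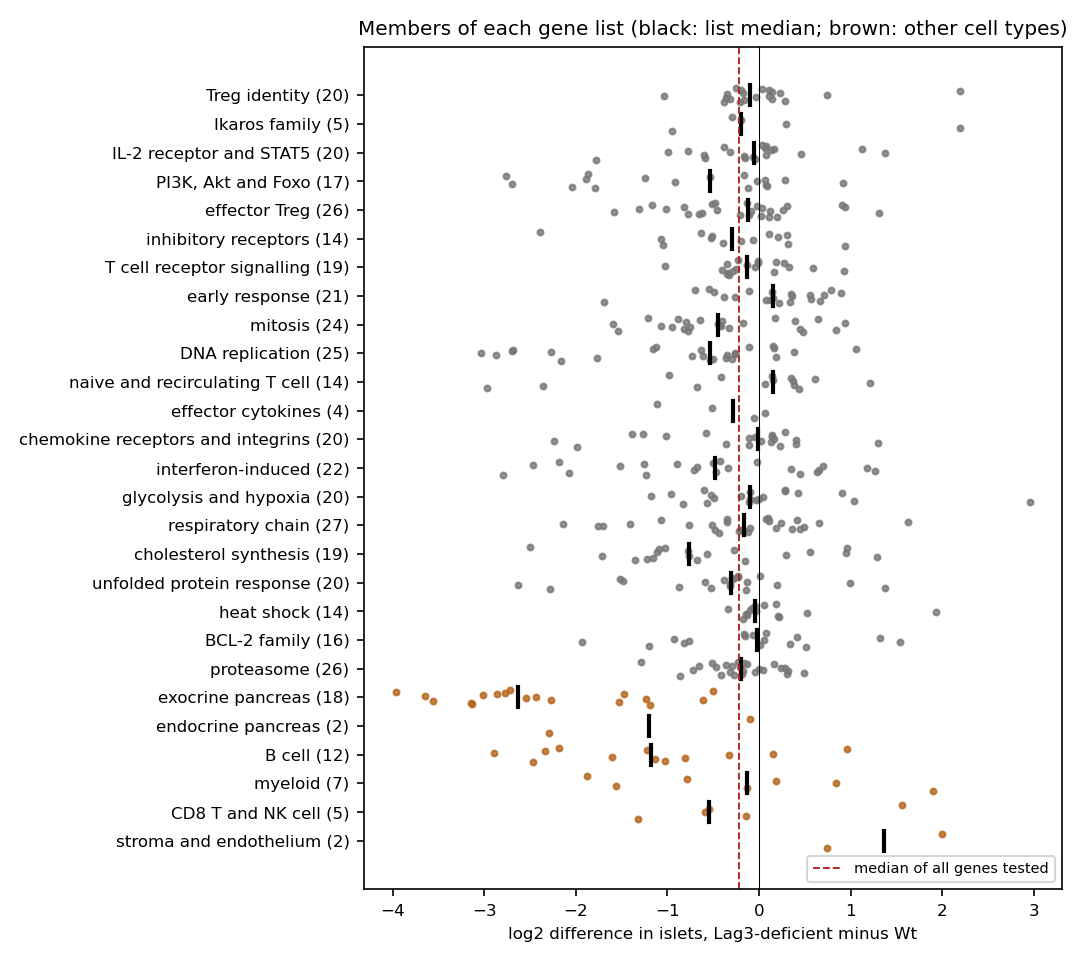
Genotype difference in islets (log2, Lag3-deficient minus Wt) of every tested member of 27 gene lists, with the number of members in brackets. Grey points are T cell and general lists and brown points markers of other cell types, black marks are list medians, and the dashed line is the median of all genes tested, -0.22; the exocrine pancreas list has the lowest median, -2.63.

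Exocrine pancreas genes had lower means in the Lag3-deficient libraries, though none passed the adjusted threshold. All 18 exocrine pancreas genes tested had a difference below 0, 6 of them at an unadjusted p under 0.05 beside 4.5% of all genes, and the median was -2.63. The genotypes overlapped for every one of the 18, while 6.03% of all genes were lower without overlap. These genes share a tissue source and are not independent readings. Ctrl, a chymotrypsin-like digestive protease, was at 9.5, 0 and 0.0694 CPM in the Lag3-deficient libraries and at 73.4, 4.11 and 111 CPM in the Wt libraries. Cpb1, a pancreatic carboxypeptidase, was at 0.301, 0.441 and 8.32 CPM against 123, 3.52 and 59.7 CPM. Wt islet 2 was the low Wt library and lay within the Lag3-deficient range for both genes. Without Lag3-deficient islet 2 the median of the list was -1.14, and 3 of 18 genes had a difference above 0. Whether acinar cells were present in these libraries was not tested. If they were, a smaller share of them and less RNA from each cannot be told apart in a bulk library.

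B cell markers had a difference below 0 in 10 of 12 genes tested and a median of -1.18. Their summed level, MHC class II genes included, was 337 to 1029 CPM in the Lag3-deficient libraries and 681 to 1608 CPM in the Wt libraries. It was at most 240 CPM in an NDL library. Cd22, an inhibitory coreceptor of B cells, was at 0.151, 0.771 and 0.347 CPM against 19.5, 36.5 and 0.475 CPM. Ms4a1 (CD20) was at 49.5, 16.1 and 0.833 CPM against 94.7, 73.9 and 27 CPM. The summed myeloid markers were 113 to 198.5 CPM against 129 to 274 CPM. The summed CD8 T and NK cell markers, mostly Nkg7, were 70.7 to 442.5 CPM against 226 to 413 CPM. Endocrine markers summed to 8.59 to 48 CPM against 10.5 to 246 CPM, and stromal and endothelial markers to 17.6 to 218 CPM against 5.7 to 52 CPM. The part of this RNA in the differences of other genes was not tested.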

How the data were processed

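RNA sequencing of 12 libraries was deposited as 2 gene tables. The submitters' processing notes list TopHat2, DESeq2 and mm10, with no version and no step for any of them. The main deposited table is a signal made of rescaled whole numbers for 23361 genes. Column totals agree within 0.899%, so it holds no raw counts, no count model was used, and no counting intervals are given. Sequencing depth was read from the steps in these values, where they allowed it. The second deposited table, a further signal, served as an alternative input. The column headers carry the group and repeat the number 1, so columns were assigned to groups only.

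The values were scaled by TMM (trimming 30% of ratios and 5% of levels), and a gene was kept when 3 or more libraries held 10 or more rescaled counts, which left 10868. About 15.3 rescaled counts make 1 CPM. limma 3.58.1 in R 4.3.3 (statmod 1.5.0) was fitted with a mean-variance trend to log2(CPM + 1) over 4 groups, which share an estimate of the spread. A log2 difference on this scale understates changes of weak genes. Adjusted p-values are Benjamini-Hochberg over all genes tested, two-sided, and called under 0.05. The genes named are Lag3, the 12 genes a direction with the smallest p and a mean log2 level of at least 4 (predicted genes, receptor segments and ribosomal proteins left out), members of 4 lists, and up to 4 members by p of each other list. Further names follow genes at 0 in all libraries of a genotype, or are marked as chosen after their values were seen. Cd4, Cd3e, Cd8a and Mki67 were also named in that way. The genes passing without a library were named by that result. Some genes that the rule names are not reported here. There were 21 gene lists and 6 marker lists. The comparison, its members and all lists were chosen with earlier results of these data known. Gene positions are from GENCODE M21. The fit was tested on simulated data. Of 200 genes changed by a log2 of 1, 2, 4 and 6, it recovered 0, 13, 125 and 174. Alternatives were the scaling, pseudocount, filter, samples fitted, weights, input table and each islet library left out, with a term for the columns called 1b added after seeing the data.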

Additional observations from a re-analysis of the deposited data

How the results depend on the processing

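No paired analysis was possible because the column headers repeat the number 1 within every group. The count of genes past the adjusted threshold in islets was 0 under every alternative other than leaving out libraries, where it ran from 0 to 16, with 16 without Lag3-deficient islet 1b. The count of genes with an unadjusted p under 0.05, 624 in the comparison as reported, was 1033 with no filter (530 higher, 503 lower). It was 404 with the islet libraries fitted alone (87 and 317). Without all the columns called 1b, those of the NDL groups included, it was 1063 (186 and 877). It ran from 481 to 975 when an islet library was left out. The cause was not tested. It was 645 with voom weights, 532 with array weights and 550 with the second table. An added fit with the columns called 1b as a term gave 659. No gene passed for the difference between tissues under any alternative. Many of the named genes were picked by their p in these same libraries, and none passed in the comparison as reported. Keeping direction and side of the threshold was thus partly fixed in advance, and the counts that follow are a description only. Of 1371 alternative values of 77 named genes, 1357 kept their direction and side of the threshold, 8 passed it and 6 had the opposite sign. Those 6 were Ikzf2 with median-ratio scaling (0.04), Foxp3 without Lag3-deficient islet 2 (0.012), Ctla4 without Lag3-deficient islet 1a (-0.11), and Il2ra with array weights (-0.006), without Lag3-deficient islet 1a (-0.31) and without Wt islet 2 (-0.13). With each islet library left out in turn, Foxp3 ran from -0.52 to 0.012, Ctla4 from -0.11 to 0.31 and Il2ra from -0.31 to 0.36.

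Lag3-deficient islet 2 was read at a depth of 5.5 M, the lowest resolved in islets. With 3 libraries a genotype, half-widths of the 95% interval had a median of 2.22 on the log2 scale. The Treg identity, IL-2 and effector Treg medians changed sign under some alternatives, with ranges of -0.17 to 0.15, -0.14 to 0.19 and -0.53 to 0.16. So did the Ikaros, inhibitory receptor, T cell receptor, early response, naive T cell, effector cytokine, and chemokine receptor and integrin medians. The glycolysis, respiratory chain, heat shock, BCL-2 family and proteasome medians also changed sign, as did those of the endocrine, myeloid, CD8 T and NK cell, and stromal markers. The medians of the mitosis, DNA replication, cholesterol synthesis, PI3K, interferon and exocrine lists had ranges of -0.96 to -0.04, -0.82 to -0.30, -1.15 to -0.36, -0.94 to -0.06, -0.76 to -0.18 and -3.65 to -1.14. They are to be read against the median of all genes, which was -0.22 as reported and varied with the level of the genes. Over the alternatives that median ran from -0.383 to 0.012.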

Other observations

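Of all 23361 genes, those at 0 in all 3 islet libraries of a genotype, and above 0 throughout the other with a mean of at least 4 CPM, were counted. They numbered 15 for Lag3-deficient and 8 for Wt. Tested genes at 0 numbered 458, 927 and 414 in the Lag3-deficient islet libraries and 513, 404 and 448 in the Wt islet libraries. A mean of 4 CPM can rest on a single library. Tctex1d2 was at 0 in the Lag3-deficient libraries and at 0.414, 11.3 and 13 CPM in the Wt libraries. Rpl39l, a ribosomal protein paralog whose level is uncertain where reads are split with close copies, was at 0 against 13 (Wt 1a), 19.7 (Wt 2) and 0.0678 (Wt 1b) CPM. Hist1h4d, a replication-dependent histone H4 gene, was at 0 against 0.897, 0.293 and 24.5 CPM. In the other direction A630007B06Rik was at 0.377, 11.1 and 22.3 CPM and at 0 in the Wt libraries.

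The proteasome, heat shock and BCL-2 family lists were not described above. Of 26 proteasome subunits 7 had a difference above 0, none had an unadjusted p under 0.05 by limma, and the median was -0.20. With median-ratio scaling it was 15 of 26 and 0.04, and without Lag3-deficient islet 2 16 of 26 and 0.05. Psmb9, an immunoproteasome subunit, was at 281, 71.8 and 224 CPM in the Lag3-deficient libraries and at 224, 288 and 318 CPM in the Wt libraries. Of 14 heat shock genes 6 were above 0, with a median of -0.04. With median-ratio scaling it was 13 of 14 and 0.20, and without Lag3-deficient islet 1b 11 of 14 and 0.15. Of all genes 48.7% and 36.9% were above 0 in those settings. Hspd1, the mitochondrial chaperonin, was at 309, 375 and 255 CPM against 189, 191 and 273 CPM. Of 16 BCL-2 family genes 8 were above 0, with a median of -0.03 (log2), and 11 with 0.09 under median-ratio scaling. Bnip3l, a mitophagy receptor, was at 354, 304 and 426 CPM against 331, 248 and 191 CPM, and Bad, a death-promoting member, at 7.01, 0 and 9.09 CPM against 12.8, 23.2 and 12.5 CPM without overlap.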
